A study of Oryza sativa with 3 samples.

Results

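The 340 peaks described here are all peaks on the mitochondrial sequence in 3 lists of 5-hydroxymethylcytosine (5hmC) capture peaks, out of 10250 peaks in all. They were taken from the lists by the name of the sequence alone. Each list holds only peaks that passed the authors' cutoff for calling in that library. The lists come from young rice panicles 3 to 4 mm long of the hybrid LYP9, its pollen parent 93-11 and its seed parent PA64s, collected from field-grown plants, with 1 library each. 93-11 is an indica line, and PA64s is a photoperiod- and temperature-sensitive male-sterile line whose sterility is nuclear. The sources used here do not say how many plants entered a library. LYP9 held 114 of the mitochondrial peaks, 93-11 held 105 and PA64s held 121. Their lists held 3628, 4077 and 2545 peaks, called from 10078296, 10007148 and 11948210 tags.

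5hmC is the oxidised form of 5-methylcytosine. In animals it is made by TET enzymes, which are not known in plants. In the capture, an enzyme added a modified glucose to 5hmC, biotin was joined to that sugar by click chemistry, and streptavidin drew out the tagged fragments. Plant mitochondrial genomes are large, rich in repeats and prone to recombination, and they carry stretches of plastid origin. Plant nuclear chromosomes in turn carry inserted pieces of mitochondrial DNA. In rice the mitochondria normally come from the seed parent, so LYP9 has its cytoplasm from PA64s. The input alignments were named as uniquely mapped, and no control library was used. A peak therefore reports more tags than in the surroundings, and 5hmC at a given peak was not established. What repeats, copies elsewhere and copy number contribute was not tested. The files name no build, so the genes under the peaks were not looked up and regions are given by the coordinates of the files, counted from 1.

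Mitochondrial peaks lay between 46704 and 421563, a span of 374.9 kb, and covered only a small part of it. They covered 31.4 kb in LYP9, 28.5 kb in 93-11 and 38.0 kb in PA64s, or 8.37%, 7.60% and 10.1% of the span. They made up 3.14% of the LYP9 list (exact Clopper-Pearson 95% interval 2.60 to 3.76), 2.58% of the 93-11 list (2.11 to 3.11) and 4.75% of the PA64s list (3.96 to 5.65). All intervals here cover counting error only. Per 1000000 tags the numbers were close, with 11.3 peaks in LYP9, 10.5 in 93-11 and 10.1 in PA64s.

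The peaks fell into 8 groups separated by more than 10 kb without a peak in any list. The longest free stretch common to the lists ran from 336279 to 387888 and measured 51.6 kb. The next ran from 94576 to 141131 and from 147134 to 178571, with 46.6 and 31.4 kb. Between these last stretches lay a group of 3 sites, from 141132 to 147133, that held 5 peaks in LYP9, 0 in 93-11 and 3 in PA64s. As a result the longest free stretch was 97.0 kb in 93-11, from 94571 to 191555, and 51.6 kb in each of the other lists. The densest window of 50 kb was that from 250 to 300 kb in every list, with 25 peaks in LYP9, 24 in 93-11 and 31 in PA64s.

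Within the groups, peaks followed each other closely. The median distance between neighbouring summits was 1041 bp in LYP9, 929 bp in 93-11 and 902 bp in PA64s. Distances under 1 kb made up 48.7%, 52.9% and 53.3% of all distances in the same order. The shortest gap between the end of a peak and the start of the next was 83 bp in LYP9, 89 bp in 93-11 and 83 bp in PA64s, and 31, 30 and 36 gaps were under 200 bp. Merging peaks within 500 bp left 63, 60 and 66 peaks, with median distances of 2761, 2683 and 2318 bp.

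The background under the peaks took low and high values with few between. Background was taken as the pileup, the count of extended tags that cover the summit, divided by the deposited fold enrichment. MACS, the peak caller, takes it as the larger of a genome-wide level and the level in 10 kb around a peak. The lowest mitochondrial backgrounds, 2.09 tags in LYP9, 2.13 in 93-11 and 2.48 in PA64s, equalled to within 1% the genome-wide level that follows from the tags, their extension length and the genome size of the header. A background of up to 3 times that level is called low here, a limit chosen after the values were seen. Low background was found under 43 peaks in LYP9, 33 in 93-11 and 44 in PA64s, and high background under 71, 72 and 77. Backgrounds between 3 and 5 times the genome-wide level occurred at 1 peak of each list. The median high background was 18.9 times the genome-wide level in LYP9, 21.0 times in 93-11 and 26.5 times in PA64s.

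Peaks on low background were short and steep, and those on high background broad and shallow. On low background the median length was 130 bp in LYP9, 135 bp in 93-11 and 138 bp in PA64s. Their median fold enrichment was 19.5, 23.7 and 21.6, and the median pileup was 66 tags, 73 tags and 120.0 tags. Lengths from 130 to 150 bp accounted for 21 of 43, 19 of 33 and 31 of 44 low-background peaks. Of the low-background peaks, 41 in LYP9, 31 in 93-11 and 42 in PA64s were no longer than 161, 165 and 161 bp, which is the most that tags of the extended length can span when all of them cover the same base. On high background the median length was 203 bp in LYP9, 192 bp in 93-11 and 277 bp in PA64s. The fold enrichment there was only 2.24, 2.11 and 2.09, at pileups of 92, 98.5 and 138 tags. In each list the median pileup was thus lower and the median fold higher on low background, the fold being the pileup divided by that background.

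**Figure D1:**
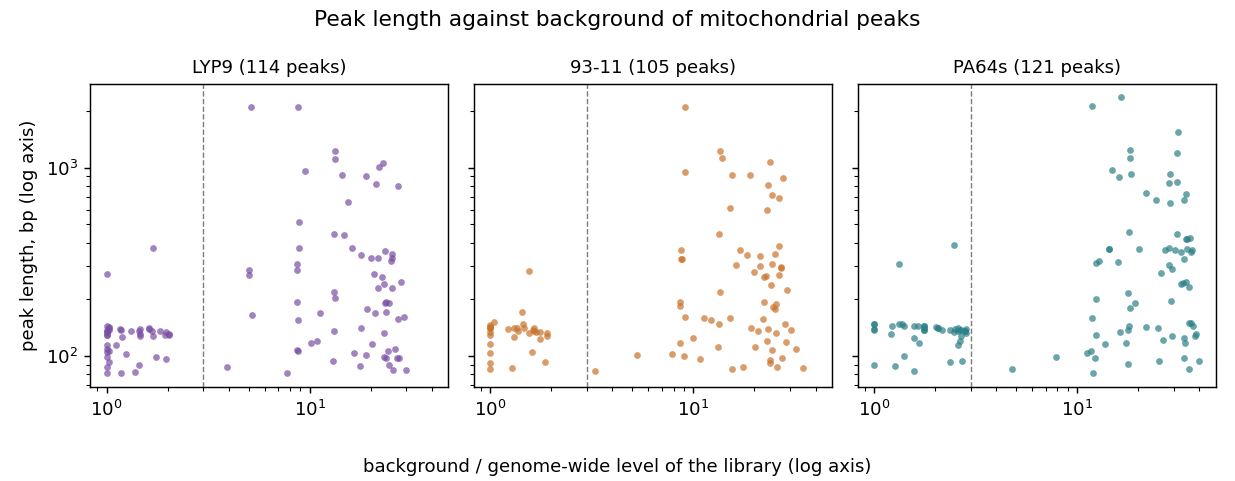
Peak length in bp against background as a multiple of the genome-wide level of the library, both on log axes, for each mitochondrial peak of LYP9, 93-11 and PA64s. Left of the dashed line at 3 lie 43, 33 and 44 peaks, and 41, 31 and 42 of these are no longer than 161, 165 and 161 bp; every peak over 388 bp lies to the right.

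The longest peaks lay on high background. The longest was a PA64s peak of 2367 bp from 142125 to 144491, with a pileup of 143 tags and a fold of 3.49. The LYP9 peak at the same place measured 2107 bp with 48 tags, and 93-11 had no peak there. PA64s also had a peak of 2124 bp from 92452 to 94575. Peaks over 500 bp numbered 13 in LYP9, 13 in 93-11 and 17 in PA64s and made up 45.3%, 44.3% and 48.5% of the covered length. The shortest peaks measured 81 bp, as at 51850 to 51930 in LYP9, with 20 tags.

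The classes alternated along the sequence. From 50 to 100 kb, low background lay under 17 of 20 peaks in LYP9, 14 of 17 in 93-11 and 16 of 19 in PA64s. From 150 to 200 kb it lay under all 8, 4 and 8 peaks. From 300 to 350 kb it lay under none of the 19, 22 and 20 peaks, and the median background there was 50.0 tags in LYP9, 56.5 in 93-11 and 78.8 in PA64s. The last 5 sites, from 416860 to 421563, were again on low background. Across the 85 sites present in all lists, Spearman's rho of background was 0.993 between LYP9 and 93-11, 0.987 between LYP9 and PA64s and 0.978 between 93-11 and PA64s. These values pool the classes. On low background alone rho was 0.938, 0.918 and 0.859 in the same order, and on high background 0.983, 0.965 and 0.939. These points share libraries and neighbouring sites share tags, so the values are a description only.

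**Figure D2:**
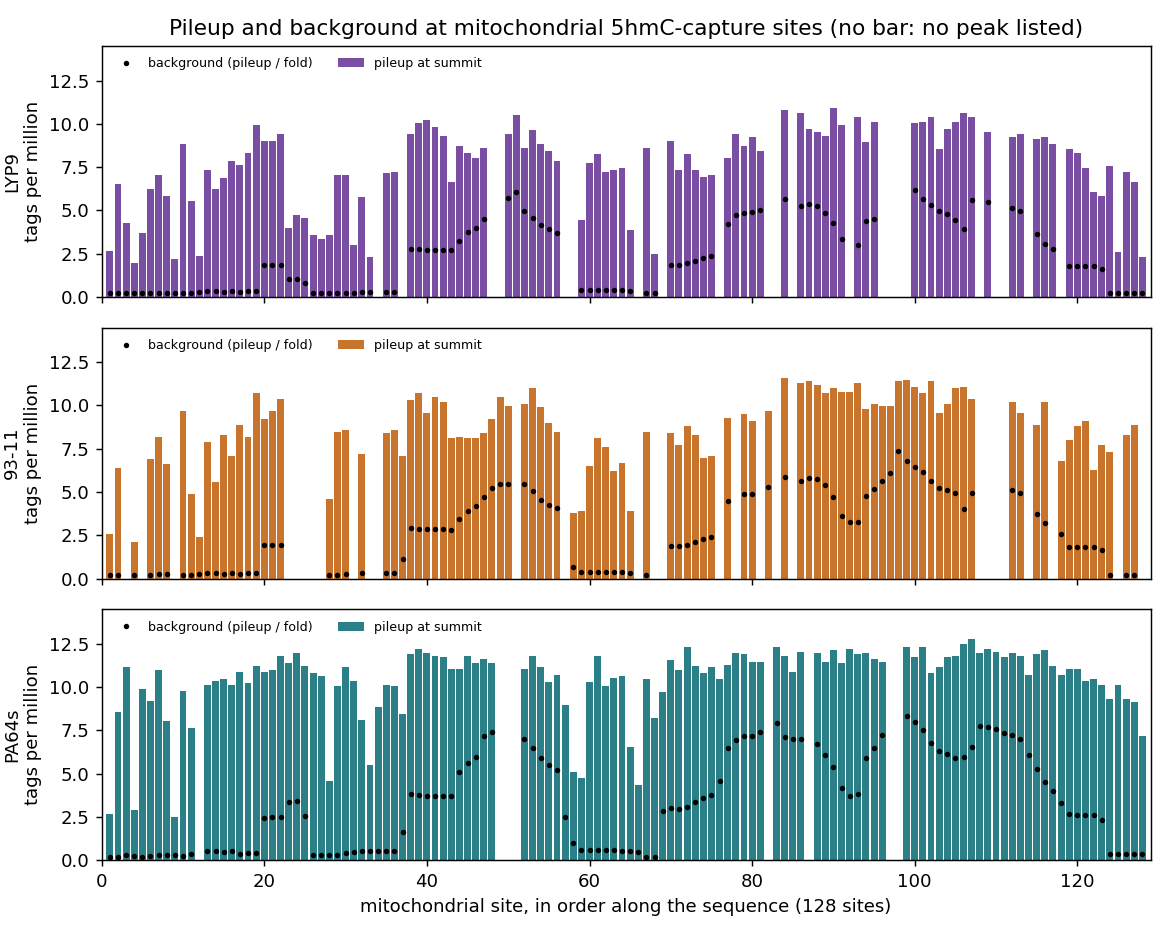
Bars give the highest pileup per 1000000 tags at each of the 128 mitochondrial sites, in order along the sequence, in LYP9, 93-11 and PA64s from top to bottom, and points give the background per 1000000 tags. Backgrounds alternate between low values, 0.208 to 0.591 per 1000000 tags, and high ones in the same places in each list, while missing bars mark sites without a peak.

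Set against the nuclear peaks of the same library, mitochondrial peaks were longer and taller but had a lower median fold enrichment, with background classes pooled. The median length was 139 bp against 105 bp in LYP9, 142 bp against 108 bp in 93-11 and 145 bp against 107 bp in PA64s. The median pileup per 1000000 tags was 8.29 against 2.28 in LYP9, 8.89 against 2.30 in 93-11 and 11.0 against 2.18 in PA64s. Median background per 1000000 tags was 1.85 against 0.221, 2.86 against 0.229 and 3.33 against 0.238. Median fold enrichment was 3.63 against 8.94, 3.35 against 8.57 and 3.41 against 8.06. Low background lay under 37.7% of mitochondrial against 91.0% of nuclear peaks in LYP9, 31.4% against 91.4% in 93-11 and 36.4% against 91.9% in PA64s. Mitochondrial peaks on low background alone had higher median folds than all nuclear peaks, at 19.5, 23.7 and 21.6. On the log2 scale the mitochondrial minus nuclear difference was 0.41 ± 0.02 for length, 2.05 ± 0.26 for pileup per 1000000 tags, 3.51 ± 0.39 for background per 1000000 tags and −1.30 ± 0.06 for fold enrichment (SD, n = 3 libraries). Peaks per covered kb differed by −1.03 ± 0.12. This measure is the inverse of mean peak length and no density along the sequence. The 5 measures are not independent, fold being pileup over background. Each of the 5 differences had the same sign in 3 of 3 libraries, and each gave p = 0.25 in a two-sided exact paired sign-flip permutation test over libraries (adjusted p = 0.25), which is the smallest value that 3 libraries allow. Backgrounds over 10 times the genome-wide level lay under 55 of 114 mitochondrial and 30 of 3489 nuclear peaks in LYP9, 59 of 105 and 44 of 3970 in 93-11, and 75 of 121 and 5 of 2396 in PA64s. Among the 100 highest pileups of a whole list, 22 were mitochondrial in LYP9, 24 in 93-11 and 78 in PA64s.

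Mitochondrial peaks recurred at the same places in the lists, most of all those of LYP9 in PA64s. Of the LYP9 peaks, 94 (82.5%, exact interval 74.2 to 88.9) overlapped a 93-11 peak by at least 1 bp, against 71.8% over the whole LYP9 list. In PA64s, 110 of the 114 were found (96.5%, 91.3 to 99.0), against 47.4% over the whole list. Of the 93-11 peaks, 93 (88.6%, 80.9 to 94.0) overlapped one of LYP9 and 98 (93.3%, 86.7 to 97.3) one of PA64s, against 63.7% and 40.5% over the whole list. Of the PA64s peaks, LYP9 shared 103 (85.1%, 77.5 to 90.9) and 93-11 shared 93 (76.9%, 68.3 to 84.0), against 67.7% and 65.3% over the whole list. The covered share of the span differs between sequences, and the shares were not adjusted for it.

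Joined across lists, the peaks formed 128 sites, of which 85 (66.4%) were present in all 3 lists, against 26.1% of the sites of the whole series. LYP9 and PA64s shared a further 17 sites without 93-11 (3.41% of sites in the whole series were of this class), 93-11 and PA64s shared 7 without LYP9 (2.28%), and LYP9 and 93-11 shared 3 without PA64s (18.6%). LYP9 alone had 1 site (14.3%), 93-11 alone had 4 (23.5%) and PA64s alone had 11 (11.9%). When summits had to lie within 50 bp, the sites of all lists numbered 51 and those of LYP9 and PA64s without 93-11 numbered 17, and 13 of the 17 sites by overlap coincided with one of these.

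**Figure D3:**
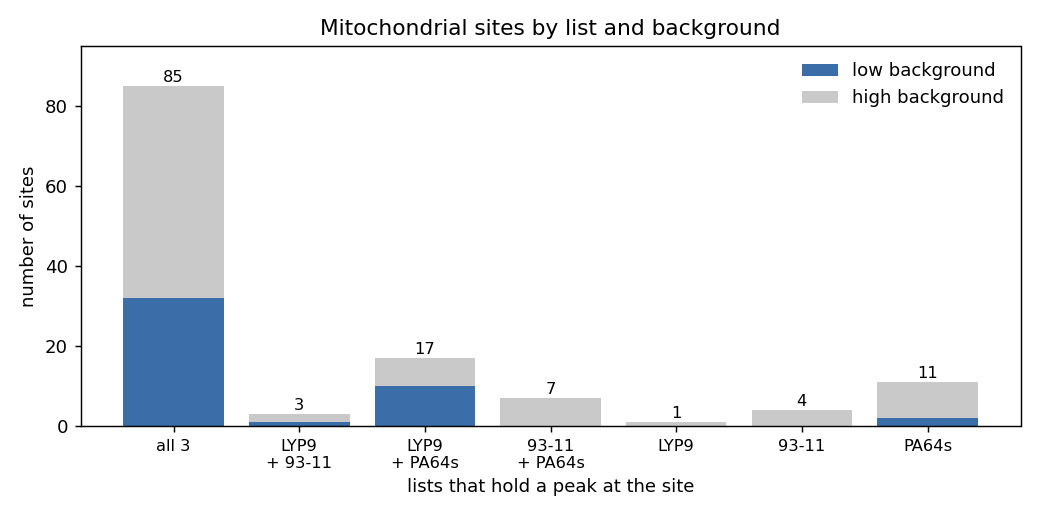
Number of mitochondrial sites, on the vertical axis, by the lists that hold a peak there, with low background (up to 3 times the genome-wide level in every list with a peak) and high background stacked. Of the 17 sites of LYP9 and PA64s without 93-11, 10 are on low background, and all 7 sites of 93-11 and PA64s without LYP9 are on high background.

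Summits agreed closely on low background. At the 32 low-background sites of all lists, each with 1 peak per list, the LYP9 and 93-11 summits lay at most 3 bp apart. Between LYP9 and PA64s, and between 93-11 and PA64s, 31 of 32 lay within 10 bp, and the exception, from 75477 to 75866, had summits 265 bp apart in both pairs. At 44 high-background sites with 1 peak per list, the median summit distance was 47.5 bp between LYP9 and 93-11, 47 bp between LYP9 and PA64s and 41.5 bp between 93-11 and PA64s.

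The highest-scoring sites of all lists were low-background sites about 150 bp long. From 273137 to 273284 the pileup was 87 tags in LYP9, 85 in 93-11 and 125 in PA64s, with folds of 41.6, 39.9 and 50.4. From 64902 to 65052 it was 89, 97 and 117 tags, with folds of 42.5, 43.8 and 38.5. From 86867 to 87009 it was 100 tags in LYP9, 107 in 93-11 and 134 in PA64s. In tags, PA64s thus had the tallest pileup at each of these sites, and LYP9 and 93-11 lay close to each other. The other 7 sites named by the same rule began at 82596, 193495, 194728, 60946, 419546, 86259 and 416860. Their pileups, not scaled to the tags of each library, ranged from 71 to 84 tags in LYP9, 73 to 89 in 93-11 and 111 to 133 in PA64s. PA64s did not overlap with the others there. In fold enrichment the ranges overlapped, with 24.75 to 35.41 in LYP9, 23.41 to 39.91 in 93-11 and 23.76 to 34.29 in PA64s.

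Pileups per 1000000 tags were lower in LYP9 and 93-11 than in PA64s at nearly every site of all lists. As fold enrichment the order turned round, mainly on high background, with medians of 1.09 for LYP9 over PA64s and 1.11 for 93-11 over PA64s. On high background the fold was above that of PA64s at 48 of 53 sites in LYP9 and 50 of 53 in 93-11. On low background it was above at 19 and below at 12 of 32 sites in LYP9. In 93-11 it was above at 17 and below at 15. In pileup per 1000000 tags, the median ratio of LYP9 over PA64s was 0.771 (range 0.578 to 1.00), and it was below 1 at 84 of 85 sites. For 93-11 over PA64s the median was 0.817 (0.539 to 1.06), again below 1 at 84 of 85. LYP9 over 93-11 had a median of 0.936 (0.747 to 1.19). At nuclear sites of all lists the medians against PA64s lay above 1, with values of 1.33 for LYP9 over PA64s, 1.39 for 93-11 over PA64s and 0.948 for LYP9 over 93-11 at 1410 sites. At the 25 chloroplast sites in both lists, LYP9 over PA64s had a median of 0.453 and was below 1 at 24. With 1 library per cultivar none of these ratios has a replicate check, and the comparisons share libraries. Background per 1000000 tags was lower than in PA64s too, with median ratios of 0.710 for LYP9 and 0.727 for 93-11. Divided by the median mitochondrial background of each list, the pileup ratios became 1.39 for LYP9 over PA64s, 0.95 for 93-11 over PA64s and 1.45 for LYP9 over 93-11. That divisor pools low and high background over all mitochondrial peaks of a list and is not the background at these sites. Its ratio was 0.646 for LYP9 over 93-11, against a median of 0.966 at the 85 sites. For LYP9 over PA64s it was 0.556, against 0.710 at the 85 sites.

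A difference of at least 1.5-fold in pileup per 1000000 tags was counted at sites present in both lists of a pair. LYP9 was lower than PA64s by that much at 23 of 102 mitochondrial sites, against 4.73% of sites in the whole series, and higher at 0, against 24.9%. The whole series includes the mitochondrial sites. By the same limit LYP9 was lower at 34 of 1566 nuclear sites (2.17%) and at 23 of 25 chloroplast sites, and higher at 421 and 0. 93-11 was lower than PA64s at 10 of 92, against 1.29%, and higher at 0, against 33.8%. Between LYP9 and 93-11 no site of 88 differed by 1.5-fold, against 4.1% lower and 0.858% higher in the whole series. Counted on fold enrichment, LYP9 was lower than PA64s at 8 of 102, against 3.43% in the whole series, and higher at 0, against 16.4%. 93-11 was lower than PA64s at 0 of 92, against 2.21%, and higher at 3, against 19.5%. LYP9 and 93-11 again differed at no site, against 2.5% lower and 1.25% higher.

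Mitochondrial pileups in PA64s reached 153 tags, close to the highest pileup of its whole list. The input alignments were named as free of redundant reads. If 1 tag is kept per position and strand, a pileup cannot pass 2 times the extension length. That is 162 tags in LYP9, 166 in 93-11 and 162 in PA64s, and the highest pileups of the whole lists were 162, 165 and 160. The headers allow up to 2 tags at a position, which would permit higher pileups. The median mitochondrial pileup stood at 51.5% of the limit for 1 tag in LYP9, 53.6% in 93-11 and 81.5% in PA64s. Over 75% of it lay 0 peaks in LYP9, 0 in 93-11 and 88 of 121 in PA64s. At the 21 sites under 75% in all lists, the median ratios were 0.729 for LYP9 over PA64s and 0.817 for 93-11 over PA64s.

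Among sites of all lists, LYP9 stood lowest against PA64s at 3 places. From 409131 to 409236 it had 59 tags, 93-11 had 77 and PA64s had 121. From 408307 to 408618 the pileups were 61, 63 and 125 tags, and from 267616 to 267730 they were 39, 39 and 78. The last of these was also among the lowest for 93-11, with the sites from 75477 to 75866 (63 tags in LYP9, 56 in 93-11, 124 in PA64s) and from 265601 to 265735 (74, 62 and 126). At the other end, LYP9 reached the level of PA64s per 1000000 tags at the first site, from 46704 to 46795, with 27 tags in LYP9, 26 in 93-11 and 32 in PA64s. It came near at 333877 to 334387, with 105, 114 and 129 tags, where 93-11 stood at 1.06 times PA64s, and at 262637 to 262734, with 45, 39 and 57. The ratio of 93-11 to PA64s was also high at 64902 to 65052, given above, and at 191556 to 191659, with 36 tags in LYP9, 46 in 93-11 and 55 in PA64s.

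Since LYP9 receives its cytoplasm from PA64s, its peaks were sorted by the parents that share them. Of the 114 LYP9 peaks, 91 (79.8%) were found in both parents, against 41.7% over the whole LYP9 list. PA64s alone shared 19 (16.7%, exact interval 10.3 to 24.8), against 5.62%, and 93-11 alone shared 3 (2.63%, 0.546 to 7.50), against 30%. A single LYP9 peak (0.877%) was found in neither, against 22.6% of the whole LYP9 list. Of the PA64s peaks absent from 93-11, LYP9 held 17 of 28 (60.7%, 40.6 to 78.5), against 22.9% in the whole series. Of the 93-11 peaks absent from PA64s it held 3 of 7 (42.9%, 9.90 to 81.6), against 44.5%. These intervals overlap widely. By background, LYP9 held 10 of 12 such PA64s peaks on low background (83.3%, 51.6 to 97.9) and 7 of 16 on high background (43.8%, 19.8 to 70.1). Of such 93-11 peaks it held 1 of 1 on low background and 2 of 6 on high background (33.3%, 4.33 to 77.7). No whole-series shares were computed by background. With peaks at or above the pooled median −log10 p of 23.3 only, LYP9 held 5 of 28 PA64s peaks absent from 93-11, and no 93-11 peak absent from PA64s was left to compare.

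At most of the sites that LYP9 shared with PA64s and not with 93-11, LYP9 had far lower pileups than PA64s. The median ratio of LYP9 over PA64s per 1000000 tags was 0.383 at these 17 sites, against 0.771 at the 85 sites of all lists. It was under 0.5 at 12 of the 17 and at 0 of the 85. The limit of 0.5 was chosen after the values were seen. As fold enrichment, the median ratio at the 17 sites was 0.757, against 1.09 at the 85, and it differed by background. On low background LYP9 was below PA64s in fold at 9 of 10 sites, with a median ratio of 0.484. On high background its fold was above that of PA64s at 7 of 7, with a median ratio of 1.14, so that the lower pileups there came with a lower background. At nuclear sites of LYP9 and PA64s without 93-11 the median was 1.08, and 14 of 156 lay under 0.5. On the chloroplast sequence the median was 0.446, and 19 of 23 lay under 0.5.

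**Figure D4:**
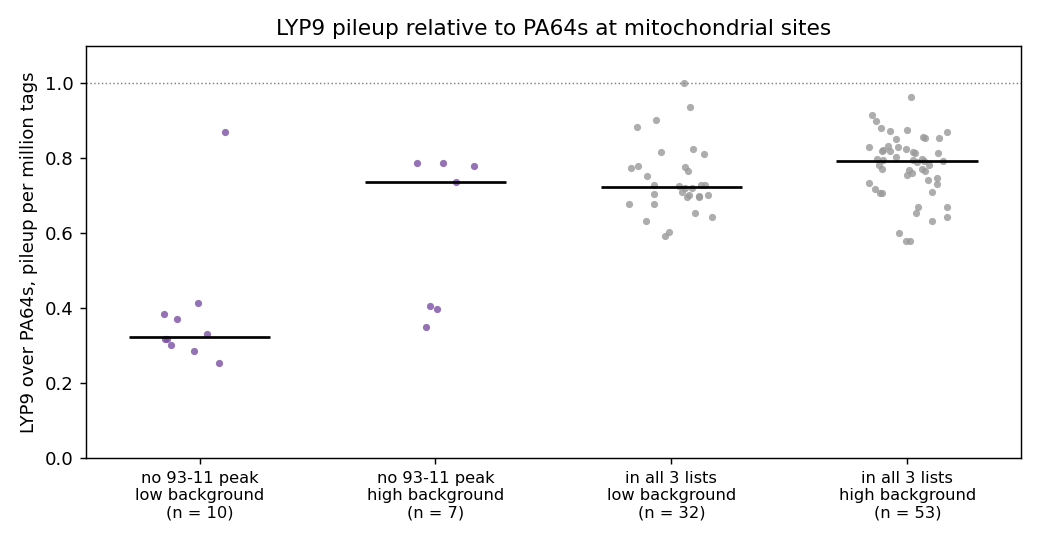
Ratio of LYP9 over PA64s in pileup per 1000000 tags, on the vertical axis, at sites without a 93-11 peak (left) and at sites of all 3 lists (right), each split by background; points are sites and lines are medians. Of the 17 sites without a 93-11 peak, 12 lie below 0.5, and none of the 85 sites of all lists does; as fold enrichment, 8 of the 17 lie above 1.

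Of the 12 sites, 7 lay between 141132 and 199513, and none lay from 273710 to 419123, a stretch with 56 of the 128 sites. That stretch was picked as the longest between neighbouring sites of the 12, so their absence from it follows from the choice. Nearly all sites in it were on high background, whereas most of the 12 were on low background. From 50120 to 50267 LYP9 had 43 tags and PA64s 133, and from 54351 to 54497 LYP9 had 37 and PA64s 118. In the group between the long free stretches, from 141132 to 142043, 142125 to 144491 and 147037 to 147133, LYP9 had 40, 48 and 46 tags and PA64s had 136, 143 and 134. In that group the background was lower in LYP9 as well, with 8.17 to 10.7 tags at the highest peak of each site, against 30.5 to 41.0 in PA64s, or 0.311 to 0.318 of the PA64s level per 1000000 tags. From 178572 to 178719 LYP9 had 36 tags and PA64s 129, and from 181816 to 182123 LYP9 had 34 and PA64s 127. At 195915 and 199394 LYP9 had 30 and 23 tags and PA64s had 124 and 66.

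Neighbouring sites could differ sharply. The site from 273573 to 273709 had 25 tags in LYP9, no peak in 93-11 and 98 tags in PA64s, a ratio of LYP9 over PA64s of 0.302. It lay 294 bp from the 93-11 peak at the highest-scoring common site, where the ratio was 0.825. From 419124 to 419267 LYP9 had 26 tags, 93-11 no peak and PA64s 121, a ratio of 0.255. The next site, 279 bp on, had 73 tags in LYP9, 83 in 93-11 and 111 in PA64s. The last site, from 421427 to 421563, had 23 tags in LYP9 and 86 in PA64s. Where background was at the genome-wide level, the 93-11 list held peaks as low as 10 tags (0.999 per 1000000 tags). Its background at sites without a peak is not known from the list.

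At the other 5 of the 17 sites the ratio lay within the range of the sites of all lists. From 61930 to 62012 LYP9 had 22 tags and PA64s 30. The remaining 4, beginning at 295311, 296966, 399963 and 405736, were on high background, with 95, 85, 96 and 89 tags in LYP9 and 143, 137, 146 and 134 in PA64s. Their ratios lay between 0.736 and 0.788, and a 93-11 peak lay within 158 to 968 bp of each.

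Peaks of a single list were mostly shallow. The LYP9-only peak, from 249882 to 250043, had 106 tags at a fold of 1.74. The 4 peaks of 93-11 alone began at 240234, 297489, 320429 and 331563 and had 97 to 114 tags at folds of 1.54 to 1.91. All 5 stood on backgrounds over 50 tags. In PA64s alone, the peak from 200653 to 200779 had 106 tags at a fold of 15.9 and that from 269842 to 269934 had 52 at a fold of 8.83, both on low background. The next in score, beginning at 285709, 257215 and 290495, had 116, 107 and 125 tags at folds of 3.40, 3.60 and 2.29. The 7 sites of both parents without LYP9 were all on high background too, with folds of 1.69 to 6.28 in 93-11 and 1.48 to 5.16 in PA64s. Among the 3 sites of LYP9 and 93-11 without PA64s, that from 72954 to 73039 was on low background, with 24 tags in each list.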

How the data were processed

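The submitters' processing notes name BWA 0.5.8. Per the file headers, the authors called peaks in each library separately with MACS 2.0.9 without a control, at a q-value cutoff of 0.01 and an effective genome size of 390000000 bp. The headers also give 10000 bp as the region for local background, 2 as the largest number of tags kept at a position, and extension to 81 bp in LYP9, 83 bp in 93-11 and 81 bp in PA64s. The sources used here name no genome build. The pileup is a coverage signal, deposited as whole numbers. The deposited fold enrichment is its ratio to MACS's background, and the deposited −log10 p and −log10 q are MACS's own; all are the authors' values, used to describe, rank or filter peaks.

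Computed here were pileup and background per 1000000 tags of the header, summit distances, sites (peaks of different lists linked by an overlap of at least 1 bp) and, for a site, the values of its highest peak. Intervals are exact Clopper-Pearson 95%; medians were given distribution-free 95% intervals to judge alternatives. With 1 library per cultivar no difference between cultivars was tested, and peaks are not replicates. Named regions are the 10 common sites ranked first by −log10 p, as a percentile within each list averaged over the lists, up to 5 highest-scoring sites of each list alone, the 3 highest and 3 lowest ratios of LYP9 and of 93-11 to PA64s, and the longest and shortest peaks. Members, lists and rules were chosen with earlier results of these data known. The limit of low background, the 10 kb gap between groups and the ratio limit of 0.5 were set after the values were seen. Alternatives changed the overlap rule, score threshold, list length, scaling, merging and windows. Site linking by overlap and by gap was checked on simulated lists. The simulated sites lay farther apart than most peaks here and held at most 1 peak of each list. Linking of closely spaced, long or multiple peaks was therefore not tested. Python 3.11.15, numpy 2.4.6, pandas 2.3.3, scipy 1.17.1, statsmodels 0.14.6 and matplotlib 3.10.9 were used.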

Additional observations from a re-analysis of the deposited data

How the results depend on the processing

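Between cultivars no paired analysis was possible because each had 1 library; mitochondrial and nuclear peaks were paired within libraries. Of 137 recomputed values, 72 stayed within the limits set, 61 moved and 4 reversed; the causes were not tested beyond the construction of each alternative. Divided by the median mitochondrial background of the list, the pileup ratios at common sites became 1.45 for LYP9 over 93-11 and 1.39 for LYP9 over PA64s, both reversed, and 0.95 for 93-11 over PA64s. That divisor is the median over all mitochondrial peaks of a list, not the background at the common sites. As fold enrichment the ratios were 0.975 for LYP9 over 93-11, and reversed to 1.09 for LYP9 over PA64s and 1.11 for 93-11 over PA64s. On low background alone these last ratios were 1.04 and 1.05, with sites on both sides of 1. Unscaled, LYP9 over PA64s was 0.650 and 93-11 over PA64s 0.685. Chosen after the data were seen, scaling to nuclear sites gave 0.988, 0.581 and 0.590, and sites under 75% of the pileup limit gave 0.911 for LYP9 over 93-11 and 0.729 for LYP9 over PA64s. At sites without 93-11 the LYP9 over PA64s ratio was 0.757 as fold and kept 0.323 to 0.407 under the 6 other alternatives.

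Site numbers depended on the rule for sharing. With 50% overlap, sites of LYP9 and 93-11 alone numbered 10, of LYP9 only 13, of 93-11 only 13 and of PA64s only 23; LYP9 peaks in 93-11 alone numbered 12 and in neither parent 13, and 12 of 25 93-11 peaks absent from PA64s were found in LYP9. With a gap of up to 500 bp, common sites numbered 46, those of LYP9 and PA64s 10, of 93-11 and PA64s 2, of 93-11 only 2 and of PA64s only 5. With summits within 50 bp the numbers were 51 common, 14 in LYP9 and 93-11, 13 in 93-11 and PA64s, 32 in LYP9 only, 27 in 93-11 only and 40 in PA64s only; LYP9 peaks in both parents numbered 50, in 93-11 alone 15 and in neither 32, and 16 of 43 93-11 peaks absent from PA64s were found. At or above the pooled median score of 23.3, the lists held 46 peaks in LYP9, 48 in 93-11 and 76 in PA64s. Common sites then numbered 41, those of LYP9 and PA64s 5 and of PA64s only 23, with 0 in LYP9 and 93-11, LYP9 only or 93-11 only. LYP9 peaks in both parents numbered 41, in PA64s alone 5, in 93-11 alone 0 and in neither 0. LYP9 held 5 of 28 PA64s peaks absent from 93-11, and 0 of 0 93-11 peaks absent from PA64s, so that no comparison of the parents remains; LYP9 over PA64s was 0.730. With 105 peaks per list, sites of LYP9 and 93-11 numbered 5, of 93-11 only 10 and of PA64s only 6; LYP9 peaks in 93-11 alone and 93-11 peaks absent from PA64s found in LYP9 each numbered 5. Merging within 500 bp left 63, 60 and 66 peaks in LYP9, 93-11 and PA64s at median spacings of 2761, 2683 and 2318 bp. The densest 25 kb window held 14 peaks in 93-11 and 20 in PA64s. A low-background limit of 5 times gave 44, 34 and 45 peaks, and the mitochondrial minus nuclear differences kept their signs.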
